A study of Mus musculus with 12 samples.

Results

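Transcripts of 10 immediate early genes were examined in mouse liver: Fos, Fosb, Jun, Junb, Atf3, Egr1, Nr4a1, Ier2, Dusp1 and Btg2. They were taken by gene symbol from a table of 55291 genes. All 10 had counts high enough to test, among 18305 genes that did. The libraries came from liver of male C57BL/6 mice that were 6 weeks old at the start and had 1 week of adaptation. In the HFD+RE and HFD+AE groups, mice ate a high-fat diet (D12492) for 8 weeks and then trained by RE or AE for at least 12 weeks. HFD mice received that diet with no training named, and NC mice received the normal diet. The labels give RE and AE only as abbreviations, which in exercise studies usually stand for resistance and aerobic exercise. The study assigned 8 mice to each high-fat group and 13 to NC, and 3 libraries per group were analysed here, numbered HFD+RE 3, 4 and 5, HFD+AE 1, 2 and 3, HFD 1, 2 and 3, and NC 2, 4 and 5. Whether each library stands for its own animal is not stated, so a p-value here reflects the scatter among the libraries, which could be technical. The time between the last training bout and tissue collection is not given in the sources used here.

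Immediate early genes are transcribed within minutes of a signal, without the need for new protein synthesis, and their short-lived transcripts soon decay. In liver they respond to growth signals, feeding hormones, injury and handling of the tissue. Serum response factor and proteins that bind cyclic AMP response elements switch many of them on through kinase cascades, and some products, among them the phosphatase encoded by Dusp1, shut those cascades down again.

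Promoter sequence shows one feature that most of these genes share. In RefSeq promoters of the GRCm38.p6 build, 8 of the 10 genes had an entry, all but Egr1 and Ier2. The 250 bases before the start were searched on both strands. The letters TGACG, the core of the cyclic AMP response element, were found in 7 of the 8 promoters (not in Jun), and in 17.8% of all 32851 promoters. The full palindrome TGACGTCA, which contains that core, was found in Dusp1 and Btg2 and in 1.55% of all promoters. The EGR motif GCGNGGGCG was found in Fosb, Nr4a1 and Btg2 and in 4.70% of all. TATAAA was found in Fos and in 12.4% of all. The CArG box, the serum response factor motif, was found in none of the 8 and in 1.47% of all. Sites farther than 250 bases before the start, and any site of Egr1 or Ier2, lay outside this search. It therefore cannot show that these genes lack the motif. A stretch of each promoter with the core is given 5′ to 3′ on the strand of the gene, with TGACG or its complement CGTCA in capitals, to show how the surrounding letters differ.
Fos, chr12:85473804-85473848, plus strand: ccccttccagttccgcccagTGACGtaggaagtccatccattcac
Fosb, chr7:19310081-19310125, minus strand: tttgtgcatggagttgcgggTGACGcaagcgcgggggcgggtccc
Junb, chr8:84978830-84978874, minus strand: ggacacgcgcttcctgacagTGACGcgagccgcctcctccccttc
Atf3, chr1:191183334-191183360, minus strand: ggaagctattaatagcattaCGTCAgc
Nr4a1, chr15:101266786-101266830, plus strand: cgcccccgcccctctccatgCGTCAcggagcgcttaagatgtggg
Dusp1, chr17:26508588-26508632, minus strand: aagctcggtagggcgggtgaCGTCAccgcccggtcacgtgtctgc
Btg2, chr1:134079294-134079338, minus strand: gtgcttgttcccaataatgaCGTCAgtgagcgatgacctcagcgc
These matches describe letters in a window and were not set against any measurement of binding.

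Library totals ran from 44373214 to 77665729 counts. On the first principal component of log2 CPM, which held 40.6% of the variance, HFD+RE 3 lay at -36.6 while HFD+RE 4 and 5 lay at 50.4 and 52.6. HFD+AE 3 lay at 14.0, apart from HFD+AE 1 and 2 at -40.4 and -36.9, and it had the most extreme value of the second component, at -70.7. Results are therefore also given without HFD+AE 3 and HFD+RE 3 where that changed them. Summed markers of sinusoidal endothelial cells ran from 111 to 292 CPM in HFD+RE, 217 to 392 in HFD+AE, 127 to 192 in HFD and 283 to 336 in NC. Summed Kupffer cell and macrophage markers ran from 46.0 to 243, 169 to 269, 82.2 to 173 and 184 to 299 CPM in the same order of groups. Summed hepatocyte markers ran from 83149 to 105191 CPM in HFD+RE, 95994 to 108332 in HFD+AE, 54622 to 76332 in HFD and 98328 to 119500 in NC. Summed stellate cell markers ran from 199.7 to 291 CPM in HFD+RE, 220.2 to 236 in HFD+AE, 229 to 300.3 in HFD and 124 to 143 in NC. Summed B and plasma cell markers ran from 9.01 to 12.0, 5.23 to 7.10, 8.94 to 32.3 and 5.87 to 6.64 CPM in the same order. No gene of these marker lists was at 0 in any library. Mitochondrial rRNA took 0.685 to 1.71% of counts in HFD+RE, 0.771 to 0.867% in HFD+AE, 1.76 to 3.26% in HFD and 0.708 to 0.924% in NC. In bulk tissue, fewer cells of a type and less RNA per cell cannot be told apart.

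Per kilobase of exon, the 10 genes spanned a wide range of levels. Averaged over the 12 libraries, Dusp1 was at 15.7 RPKM, Junb at 12.1 and Ier2 at 11.3. Jun followed at 6.65, Btg2 at 4.37 and Egr1 at 1.90 RPKM. The least abundant were Nr4a1 at 0.992, Atf3 at 0.893, Fos at 0.833 and Fosb at 0.0498 RPKM. Between the lowest and the highest library, CPM differed 8.41-fold for Nr4a1, 6.65-fold for Fosb, 6.24-fold for Jun and 5.66-fold for Egr1, and 2.26-fold for Ier2, the steadiest. All further levels are CPM, counts scaled to the library total after TMM normalization.

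**Figure D1:**
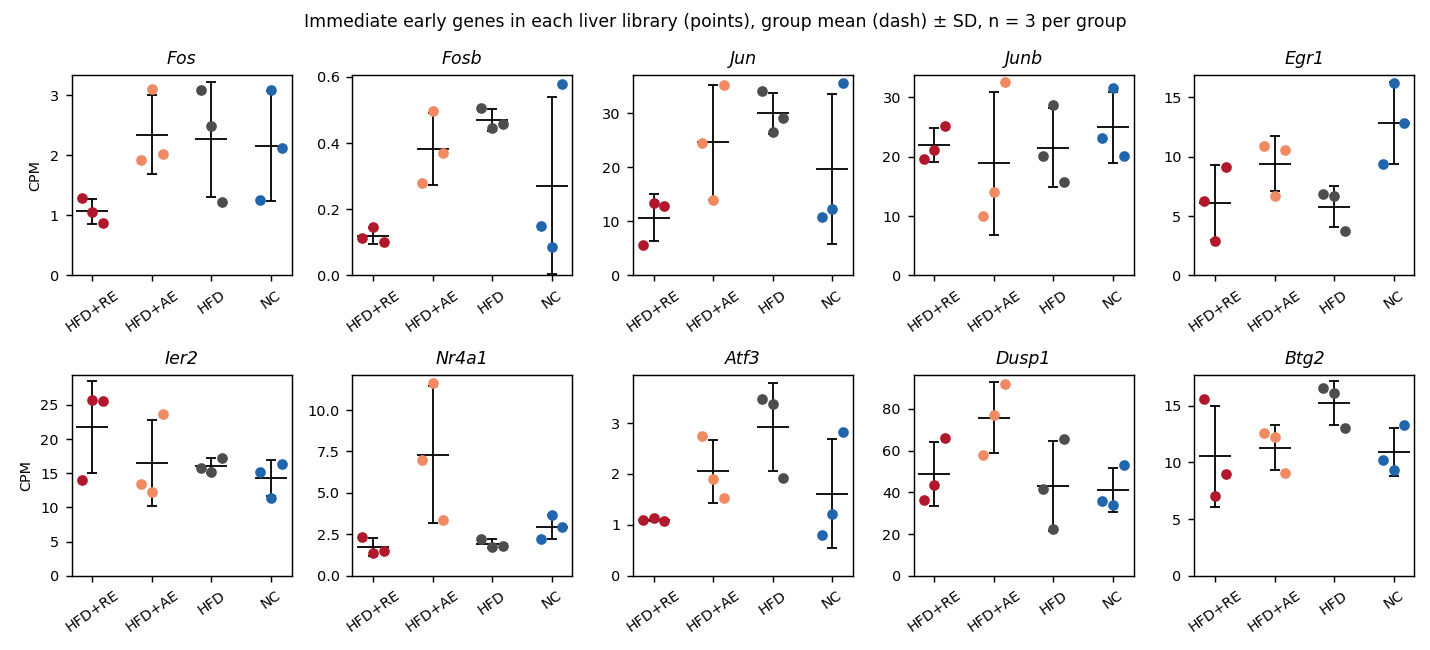
CPM of each immediate early gene (y axis, linear, from 0) in the 12 liver libraries by group (x axis). Points are libraries, dashes group means and bars SD (n = 3). The 3 HFD+RE libraries lie low for Fos, Fosb, Jun and Atf3, HFD+AE lies high for Nr4a1, and HFD lies below NC for Egr1.

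The FOS proteins pair with JUN proteins to form the transcription factor AP-1. Fos (chr12:85473890-85477273, mm10) was at 1.29, 1.05 and 0.865 CPM in HFD+RE 3, 4 and 5, at 1.92, 3.10 and 2.02 in HFD+AE 1, 2 and 3, at 3.09, 2.49 and 1.22 in HFD 1, 2 and 3, and at 1.26, 3.09 and 2.12 in NC 2, 4 and 5. All HFD+RE values lay below all HFD+AE values, while HFD 3 and NC 2 each had a value within the HFD+RE range. Group means were 1.07 ± 0.211 CPM in HFD+RE, 2.34 ± 0.656 in HFD+AE, 2.27 ± 0.959 in HFD and 2.16 ± 0.913 in NC (SD, n = 3 each).

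Fosb (chr7:19302696-19310051, mm10), a second FOS family subunit, was at 0.113, 0.145 and 0.0998 CPM in HFD+RE, at 0.280, 0.496 and 0.371 in HFD+AE, at 0.506, 0.445 and 0.458 in HFD, and at 0.149, 0.0870 and 0.578 in NC. HFD+RE lay below every HFD+AE and HFD library, and NC split, with NC 5 the highest of all 12 libraries and NC 4 the lowest. These levels rest on few reads, 6, 8 and 6 counts in HFD+RE, 18, 28 and 18 in HFD+AE, 26, 20 and 32 in HFD and 8, 4 and 44 in NC. All 12 counts were even, and whether a read pair was counted once or as 2 reads is not stated. Taking 2 counts as the unit, the exact Poisson 95% interval, which covers counting error only, ran from 0.0206 to 0.292 CPM in HFD+RE 5 and from 0.213 to 0.818 CPM in HFD 2.

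Jun (chr4:95049034-95052222, mm10), the founding JUN subunit of AP-1, was at 5.71, 13.4 and 12.9 CPM in HFD+RE, at 24.5, 14.0 and 35.2 in HFD+AE, at 34.1, 26.6 and 29.2 in HFD, and at 10.9, 12.3 and 35.6 in NC. All HFD+RE values lay below all HFD+AE and HFD values, the nearest being HFD+RE 4 and HFD+AE 2, and NC 5 again stood above the other NC libraries. Jun shares 232 exon bases with Junos on the opposite strand, and the strand setting of the counting is not given. Junos itself had 7 to 32 counts per library, against 302 to 2710 for Jun.

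Atf3 (chr1:191170296-191218039, mm10) encodes a stress-induced factor that can pair with JUN proteins. It was at 1.10, 1.13 and 1.08 CPM in HFD+RE, at 2.74, 1.90 and 1.52 in HFD+AE, at 3.46, 3.38 and 1.93 in HFD, and at 0.799, 1.22 and 2.83 in NC. HFD+RE lay below all HFD+AE and HFD libraries and within the range of NC, where NC 5 was again the highest.

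Junb (chr8:84976910-84978718, mm10) encodes a JUN subunit that can counter Jun activity. It was at 19.6, 21.2 and 25.2 CPM in HFD+RE, at 10.1, 14.0 and 32.6 in HFD+AE, at 20.2, 28.7 and 15.7 in HFD, and at 23.1, 31.6 and 20.1 in NC. Every group overlapped every other, and HFD+AE held both the 2 lowest libraries and the highest, HFD+AE 3.

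Set against HFD, the HFD+RE livers had lower fitted levels of 4 of the genes at an unadjusted p, none of which passed adjustment. No immediate early gene passed edgeR's quasi-likelihood test at a Benjamini-Hochberg adjusted p below 0.05 in HFD+RE vs HFD, which 0.0109% of all tested genes passed. At an unadjusted p under 0.05 the test found 4 of 10, Fos, Fosb, Jun and Atf3, all lower, against 8.77% of all genes. DESeq2 called 0, against 1.13% of all genes, and found 4 unadjusted. For DESeq2 no share of all genes at an unadjusted p is given, here or in the later comparisons, so those counts cannot be set against it. For 3 genes, Fosb, Jun and Atf3, the groups did not overlap, with HFD+RE lower, as for 6.99% of all genes. None was separated with HFD+RE higher, as for 7.15% of all genes. The log2 change was -1.96 (95% interval -3.30 to -0.61, adjusted p = 0.35, edgeR) for Fosb, -1.49 (-2.48 to -0.50, adjusted p = 0.339, edgeR) for Jun and -1.40 (-2.32 to -0.49, adjusted p = 0.336, edgeR) for Atf3. For Fos it was -1.08 (-1.95 to -0.21, adjusted p = 0.443, edgeR). The median log2 change was -0.34 over the 10 genes and 0.04 over all tested genes. No immediate early gene was called in any alternative fit of this comparison. Hepatocyte marker sums did not overlap between these groups, at 83149 to 105191 CPM in HFD+RE and 54622 to 76332 in HFD, nor did the mitochondrial rRNA shares, at 0.685 to 1.71% and 1.76 to 3.26%. Of the 5 hepatocyte markers, 4 were higher and 1 lower in HFD+RE by fitted log2 change. The part of the marker and mitochondrial rRNA differences in these 4 genes was not tested.

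Between the exercise groups, HFD+RE vs HFD+AE, edgeR again called 0 of the 10 genes and 0% of all genes, and found 4 at an unadjusted p under 0.05, against 8.02% of all genes. DESeq2 called 1, Nr4a1, against 0.148% of all genes, and found 5 unadjusted, again with no share of all genes to set beside them. Fos, Fosb, Jun, Nr4a1 and Atf3 did not overlap, with HFD+RE lower, which is 5 of 10 genes against 5.4% of all genes. None was separated with HFD+RE higher, as for 5.88% of all genes. The log2 change was -1.13 (95% interval -2.00 to -0.27) for Fos, -1.66 (-3.01 to -0.31) for Fosb, -1.2 (-2.18 to -0.22) for Jun and -0.90 (-1.81 to 0.01) for Atf3, each with an adjusted p of 0.606 (edgeR). The median was -0.77 over the 10 genes and 0.01 over all. B and plasma cell marker sums did not overlap either, at 9.01 to 12.0 CPM in HFD+RE and 5.23 to 7.10 in HFD+AE, and their part in these values was not tested. This comparison shares its HFD+RE libraries with HFD+RE vs HFD. Without HFD+AE 3 and HFD+RE 3 the Jun value was -0.55.

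**Figure D2:**
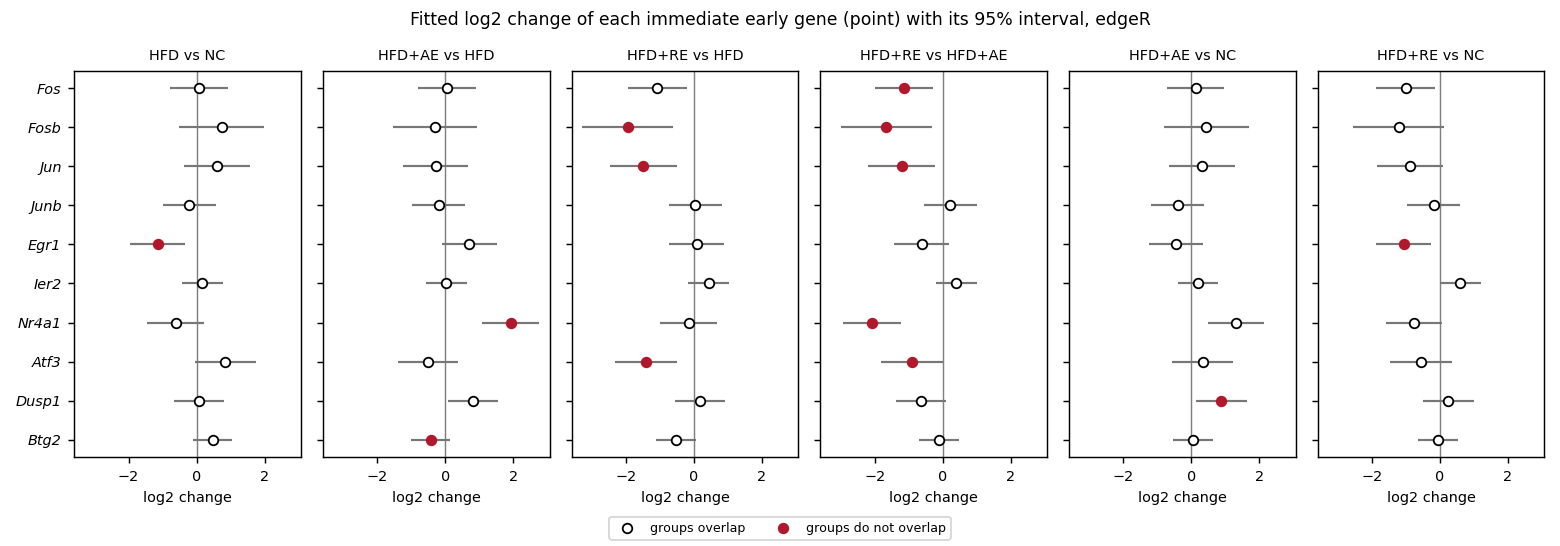
Fitted log2 change (x axis) of each immediate early gene (y axis) in 6 comparisons, with 95% intervals from edgeR and n = 3 libraries per group. Filled points mark genes whose groups do not overlap, 5 of 10 in HFD+RE vs HFD+AE and 3 of 10 in HFD+RE vs HFD. The shares of all genes without overlap in either direction were 11.3% and 14.1%. Filled points mark 1 of 10 in HFD vs NC, HFD+AE vs NC and HFD+RE vs NC, against 46%, 21.8% and 26.1% of all genes. In HFD+AE vs HFD they mark 1 higher and 1 lower gene, against 32%. No gene passed the adjusted threshold in any panel, and the comparisons share groups.

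Nr4a1 (chr15:101254269-101274795, mm10) encodes an orphan nuclear receptor that in liver responds to cyclic AMP and takes part in the control of glucose production. It was at 2.33, 1.38 and 1.5 CPM in HFD+RE, at 6.98, 11.6 and 3.34 in HFD+AE, at 2.24, 1.76 and 1.79 in HFD, and at 2.23, 3.68 and 2.96 in NC. All HFD+AE values lay above all HFD+RE and HFD values, and only HFD+AE 3 lay within the range of NC. Group means were 1.73 ± 0.515 CPM in HFD+RE, 7.31 ± 4.14 in HFD+AE, 1.93 ± 0.270 in HFD and 2.95 ± 0.723 in NC (SD, n = 3 each).

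Nr4a1 in HFD+RE vs HFD+AE had the smallest p of all 18305 genes, with a log2 change of -2.08 (95% interval -2.93 to -1.22), but did not pass adjustment (adjusted p = 0.518, edgeR). In HFD+AE vs HFD its log2 change was 1.92 (1.08 to 2.77), 3.79-fold, with an adjusted p of 0.0574 (edgeR), ranked 84 of 18305 by p. Against NC, HFD+AE had a log2 change of 1.31 (0.48 to 2.14, adjusted p = 0.125, edgeR).

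The side of the threshold turned on single libraries. The adjusted p of Nr4a1 in HFD+AE vs HFD was 0.0197 without HFD+RE 3, 0.0416 without HFD+AE 3 and 0.0372 without HFD 2 (edgeR), and 0.281 without HFD 3. Of all genes, 1930 of 18953 were called without HFD+RE 3, 21 of 18891 without HFD+AE 3 and 1691 of 18945 without HFD 2. The Nr4a1 log2 change ran from 1.42 to 2.28 over 19 alternatives and passed in 8 of them. Without both HFD+AE 3 and HFD+RE 3, Nr4a1 passed in HFD+AE vs HFD (2.28, adjusted p = 0.00348, edgeR), in HFD+RE vs HFD+AE (-2.69, adjusted p = 0.0011, edgeR) and in HFD+AE vs NC (1.66, adjusted p = 0.0158, edgeR). In the last comparison it also passed without HFD+AE 3 alone (1.65, adjusted p = 0.0397, edgeR), where 110 of 18891 genes were called. The fits without both called 22.5%, 22.1% and 1.66% of all genes in HFD+AE vs HFD, HFD+RE vs HFD+AE and HFD+AE vs NC. Both libraries were picked by their principal components in these data. For Nr4a1, HFD+AE 3 was the lowest HFD+AE library and HFD+RE 3 the highest HFD+RE library, so leaving them out widens these differences. Endothelial marker sums were higher in each HFD+AE library, at 217 to 392 CPM, than in any HFD library, at 127 to 192 CPM. Hepatocyte marker sums were likewise higher, at 95994 to 108332 CPM in HFD+AE and 54622 to 76332 in HFD, and the mitochondrial rRNA share was lower, at 0.771 to 0.867% and 1.76 to 3.26%. Of the 5 hepatocyte markers, 3 were higher and 2 lower by fitted log2 change. Alb alone, one of them, took 7.11 to 8.51% of counts in HFD+AE and 4.25 to 6.14% in HFD. B and plasma cell sums were lower, at 5.23 to 7.10 CPM in HFD+AE and 8.94 to 32.3 in HFD. Neutrophil sums were 0.623 to 0.947 and 3.73 to 9.67 CPM, and cholangiocyte sums 4.94 to 7.26 and 7.84 to 9.01 CPM. By fitted log2 change, however, 3 of the 4 cholangiocyte markers were higher in HFD+AE and 1 was lower. Library deviations from the gene means had Spearman's rho with gene length of -0.03 to 0.29 in HFD+AE and -0.29 to -0.15 in HFD. With length and GC trends removed, Nr4a1 in HFD+AE vs HFD was at 2.06 (adjusted p = 0.044, edgeR). The part of the marker and mitochondrial rRNA differences was not tested.

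Egr1, a zinc finger factor that binds GC-rich promoters and is induced by growth signals and insulin, was at 6.30, 2.87 and 9.17 CPM in HFD+RE, at 10.9, 6.73 and 10.6 in HFD+AE, at 6.89, 6.73 and 3.78 in HFD, and at 9.42, 16.2 and 12.9 in NC. All NC libraries lay above all HFD and all HFD+RE libraries, and HFD+AE overlapped both HFD and NC. Group means were 6.11 ± 3.15 CPM in HFD+RE, 9.41 ± 2.33 in HFD+AE, 5.80 ± 1.75 in HFD and 12.8 ± 3.41 in NC (SD, n = 3 each).

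For the diet, HFD vs NC, edgeR called 0 of the 10 genes, against 15.6% of all genes, and found 1 at an unadjusted p under 0.05, Egr1, against 34.7% of all genes. DESeq2 called 1, again Egr1, against 23.9% of all genes, and found 2 unadjusted. Egr1 was the 1 gene whose groups did not overlap, with HFD lower as for 22.1% of all genes. None was separated with HFD higher, as for 23.9% of all genes, and in either direction the share of all genes was 46%. The Egr1 log2 change was -1.15 (95% interval -1.96 to -0.33, adjusted p = 0.055, edgeR). It passed in 6 of 19 alternatives. The adjusted p ran from 0.0193 with DESeq2 to 0.22 without HFD 3 (edgeR), where the log2 change was -0.91, and it was 0.172 with the replicate block (edgeR). HFD and NC share only the library number 2, so the block fit leans on few shared libraries. Endothelial marker sums were lower in HFD, at 127 to 192 CPM, than in NC, at 283 to 336 CPM. Hepatocyte sums were lower too, at 54622 to 76332 CPM in HFD and 98328 to 119500 in NC, as were Kupffer cell and macrophage sums, at 82.2 to 173 and 184 to 299 CPM. By fitted log2 change, 4 hepatocyte markers were lower and 1 higher, and 7 Kupffer cell and macrophage markers were lower and 1 higher. Stellate cell sums were higher, at 229 to 300.3 CPM in HFD and 124 to 143 in NC, as were B and plasma cell sums, at 8.94 to 32.3 and 5.87 to 6.64 CPM, and the mitochondrial rRNA share, at 1.76 to 3.26% and 0.708 to 0.924%. Neutrophil marker sums, with Ly6g at 0 in some libraries, were 3.73 to 9.67 CPM in HFD and 1.24 to 2.75 in NC, and cholangiocyte sums 7.84 to 9.01 and 9.03 to 10.8 CPM. The part of these differences in the Egr1 value was not tested.

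Values of 3 other genes in HFD vs NC turned on single NC libraries. Without NC 5, Fosb, Jun and Atf3 were called higher in HFD, at log2 changes of 1.96 (adjusted p = 0.0377), 1.37 (adjusted p = 0.0468) and 1.53 (adjusted p = 0.0302) by edgeR. That fit called 2068 of all 18788 genes it tested in this comparison. With all libraries the log2 changes of Fosb, Jun and Atf3 were 0.74, 0.61 and 0.84, none of them called. In the other direction, Fosb was at 0.34 without NC 4, and Jun and Atf3 were at 0.31 and 0.51 without NC 2. The median over the 10 genes was 0.12, and 0.01 over all genes.

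Between HFD+RE and NC, edgeR called 0 of the 10 genes, against 3.96% of all genes, and found 3 at an unadjusted p under 0.05, against 24.5%. DESeq2 called 1, Egr1, against 11.3% of all genes, and found 3 unadjusted. Egr1 was the gene whose groups did not overlap, with HFD+RE lower, as for 12.4% of all genes. None was separated with HFD+RE higher, as for 13.7% of all genes. The Egr1 log2 change was -1.07 (95% interval -1.88 to -0.26, adjusted p = 0.115, edgeR), and that of Fos was -1.01 (-1.88 to -0.15, adjusted p = 0.15, edgeR). The median was -0.66 over the 10 genes and 0.02 over all. Without NC 5 the values of Fosb and Atf3, -1.22 and -0.56 with all libraries, turned to 0.0059 and 0.13. Without NC 4 the Fosb value was -1.61, and without NC 2 that of Atf3 was -0.88. Stellate cell marker sums did not overlap, at 199.7 to 291 CPM in HFD+RE and 124 to 143 in NC, nor did those of B and plasma cells, at 9.01 to 12.0 and 5.87 to 6.64 CPM, and their part in these values was not tested. This comparison shares NC with HFD vs NC and HFD+RE with the comparisons above.

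Ier2 (chr8:84661331-84662854, mm10) encodes a nuclear protein induced by growth factors. It was at 14.1, 25.7 and 25.6 CPM in HFD+RE, at 13.4, 12.2 and 23.7 in HFD+AE, at 15.8, 15.2 and 17.3 in HFD, and at 15.2, 11.4 and 16.4 in NC. HFD+RE 4, HFD+RE 5 and HFD+AE 3 stood above all other libraries. The log2 change in HFD+RE vs NC was 0.60 (95% interval 0.0021 to 1.2, adjusted p = 0.203, edgeR), and it was called without HFD+RE 3 (0.84, adjusted p = 0.0346, edgeR). The fit without HFD+RE 3 called 3983 of all 18953 genes it tested in this comparison.

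The same 3 libraries were also the highest in a measure of base composition. Across genes, a library's deviation from the gene means had a Spearman rho with GC content of 0.49 in HFD+AE 3, 0.33 in HFD+RE 4 and 0.18 in HFD+RE 5, and from -0.29 to 0.06 in the others. GC content, taken from the longest reference transcript of each gene, was 60.9% for Ier2 and 62.6% for Junb, the highest of the 10 genes. Both genes have other coordinates in the deposited data than in that reference annotation. With length and GC trends removed, the Ier2 value of HFD+RE vs NC was 0.17 and that of Junb was -0.56, against -0.18 without the correction.

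Dusp1 (chr17:26505590-26562128, mm10) encodes a phosphatase that inactivates stress-activated kinases. It was at 36.5, 43.5 and 65.9 CPM in HFD+RE, at 58.0, 77.0 and 92.0 in HFD+AE, at 41.4, 22.6 and 65.5 in HFD, and at 35.8, 33.9 and 53.1 in NC. All HFD+AE libraries lay above all NC libraries, and HFD 3 and HFD+RE 5 reached into the HFD+AE range. Dusp1 shares 11 exon bases with Ergic1 on the opposite strand, which had 2717 to 5019 counts per library, against 1017 to 4579 for Dusp1.

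Between HFD+AE and HFD, edgeR called 0 of the 10 genes, against 0.0492% of all genes, and found 2 at an unadjusted p under 0.05, Nr4a1 and Dusp1, against 26.4% of all genes. DESeq2 called 1, Nr4a1, against 12.1% of all genes, and found 2 unadjusted. The groups did not overlap for Nr4a1, with HFD+AE higher as for 15.8% of all genes, and for Btg2, with HFD+AE lower as for 16.3%. The Dusp1 log2 change was 0.81 (95% interval 0.07 to 1.55, adjusted p = 0.159, edgeR). The median was -0.08 over the 10 genes and 0.00 over all.

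Between HFD+AE and NC, edgeR called 0 of the 10 genes, against 1.38% of all genes, and found the same 2 genes at an unadjusted p under 0.05, against 14% of all. DESeq2 called 1, Nr4a1, against 4.55% of all genes, and found 2 unadjusted. Dusp1 was the gene whose groups did not overlap, with HFD+AE higher as for 12.1% of all genes. None was separated with HFD+AE lower, as for 9.74%, and the share of all genes in either direction was 21.8%. The Dusp1 log2 change was 0.89 (95% interval 0.14 to 1.63, adjusted p = 0.259, edgeR). The median was 0.26 over the 10 genes and -0.01 over all. Stellate cell marker sums did not overlap, at 220.2 to 236 CPM in HFD+AE and 124 to 143 in NC. Neither did neutrophil sums, at 0.623 to 0.947 and 1.24 to 2.75 CPM, with a marker at 0 in some libraries. Cholangiocyte sums were 4.94 to 7.26 and 9.03 to 10.8 CPM, though by fitted log2 change 2 of the 4 markers were higher and 2 lower. The part of these differences in the values of the 10 genes was not tested.

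Btg2 (chr1:134075170-134079120, mm10) encodes an antiproliferative protein that also promotes mRNA decay. It was at 15.6, 6.99 and 9 CPM in HFD+RE, at 12.6, 12.3 and 9.02 in HFD+AE, at 16.6, 16.1 and 13.0 in HFD, and at 10.2, 9.31 and 13.3 in NC. HFD lay above all HFD+AE libraries, while HFD+RE 3 and NC 5 reached into the HFD range. The log2 change in HFD+AE vs HFD was -0.43 (95% interval -1.01 to 0.15, adjusted p = 0.326, edgeR).

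Leaving out HFD+AE 3 and HFD+RE 3 together, which kept HFD+AE 1 and 2 and HFD+RE 4 and 5, called more of the 10 genes and far more of all genes. In HFD+AE vs HFD it called 2 of 10, against 22.5% of all genes, Junb (-0.83, adjusted p = 0.0495, edgeR) beside Nr4a1. For HFD+RE vs HFD+AE it called 4 of 10, against 22.1% of all genes: beside Nr4a1, Junb (0.94, adjusted p = 0.0409), Ier2 (0.997, adjusted p = 0.00391) and Btg2 (-0.64, adjusted p = 0.0481) were called by edgeR. For HFD+RE vs NC it called 2 of 10, Ier2 (0.84, adjusted p = 0.00297) and Nr4a1 (-1.03, adjusted p = 0.0199) by edgeR, against 31.7% of all genes. HFD+AE vs NC had 1 of 10, against 1.66% of all genes, and the other comparisons had 0, against 33.1% in HFD vs NC and 0.0265% in HFD+RE vs HFD. The libraries left in HFD+RE vs HFD+AE also differed in their rho with GC content. It was 0.33 and 0.18 in HFD+RE 4 and 5, and -0.29 and -0.24 in HFD+AE 1 and 2. GC content was 62.6% for Junb, 60.9% for Ier2 and 49.7% for Btg2, the lowest of the 10 genes. With all libraries and length and GC trends removed, their values there were 0.12, 0.17 and -0.16. The part of these trends in the calls was not tested.

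Ranked within each gene from 1, the highest of 12 libraries, the median rank over the 10 genes was 9 in HFD+RE 3, 9 in HFD+RE 4 and 10 in HFD+RE 5, the 3 lowest places. It was 6, 6.5 and 4 in HFD+AE, 4.5, 5 and 5 in HFD, and 8, 8.5 and 4.5 in NC. The HFD+RE libraries were not low for each gene, since HFD+RE 4 was the highest library for Ier2 and HFD+RE 3 the third highest for Btg2.

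**Figure D3:**
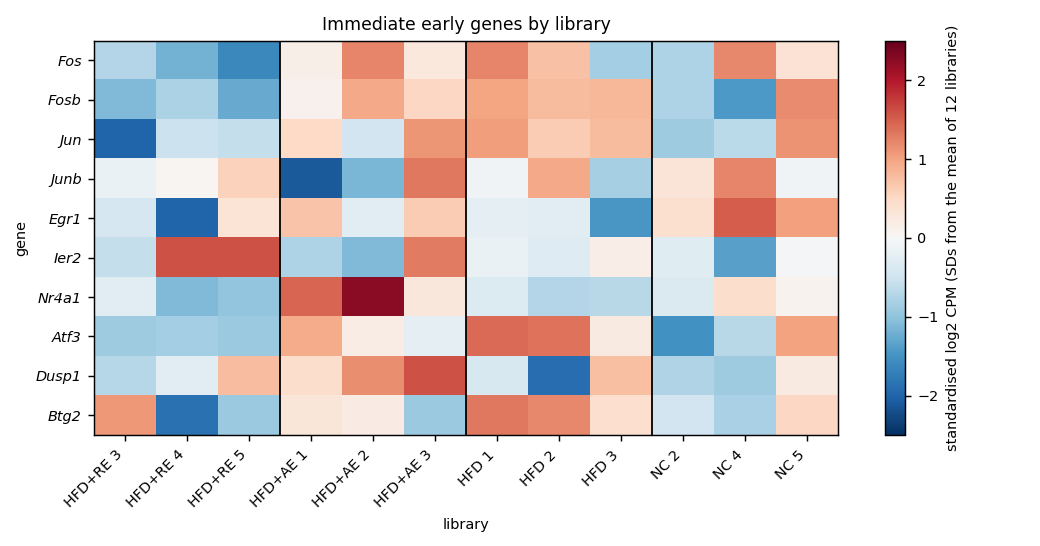
Log2 CPM of each immediate early gene (rows) in each library (columns), standardised to the mean and SD of the 12 libraries, with red above and blue below the mean. HFD+RE is blue for Fos, Fosb, Jun and Atf3, and NC 5 is red for Fosb, Jun and Atf3 where NC 2 and NC 4 are blue.

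Libraries of a group differed more for these genes than for most. The SD of log2 CPM within groups had a median of 0.53 over the 10 genes and 0.39 over all tested genes, and 9 of 10 lay above the median of all. Among the 500 genes nearest in level, 9 of 10 also lay above the median. Jun had the largest within-group SD, at 0.68, above 96.4% of the 500 genes nearest to it in level. Group by group the median SD of the 10 genes was 0.42 in HFD+RE, 0.40 in HFD+AE, 0.32 in HFD and 0.37 in NC, against 0.39, 0.35, 0.26 and 0.26 over all genes.

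**Figure D4:**
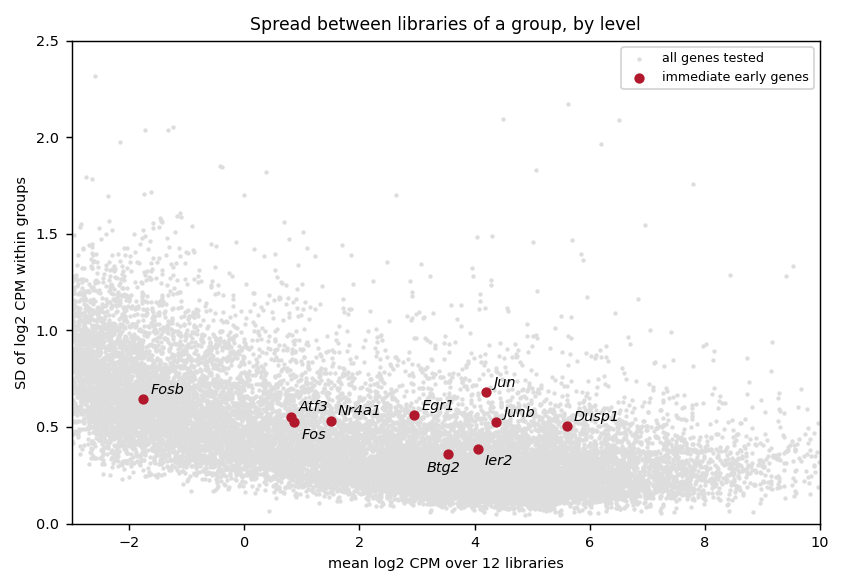
SD of log2 CPM within groups (y axis) against mean log2 CPM over 12 libraries (x axis), one point per tested gene; genes beyond the axes are not drawn. Immediate early genes (red) run from 0.36 for Btg2 to 0.68 for Jun, and 9 of 10 lie above the median SD of all genes, 0.39.

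The other FOS, JUN, EGR and NR4A genes were expressed at different levels. Jund, a JUN subunit that is expressed without stimulation, was at 8.57, 33.3 and 35.2 CPM in HFD+RE, at 11.4, 10.6 and 34.5 in HFD+AE, at 31.9, 27.2 and 36.1 in HFD, and at 16.4, 11.1 and 13.0 in NC. HFD did not overlap NC (log2 change 1.24, adjusted p = 0.0983, edgeR), and HFD+RE 3 and HFD+AE 3 stood apart from their groups. Fosl2, a FOS family subunit, ran from 10.03 to 12.8 CPM in HFD+RE, 14.4 to 18.1 in HFD+AE, 10.8 to 19.9 in HFD and 16.0 to 21.3 in NC.

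Nr4a3, a nuclear receptor of the Nr4a1 family, was at 0.265, 0.109 and 0.0666 CPM in HFD+RE, at 0.249, 0.177 and 0.206 in HFD+AE, at 0.759, 0.356 and 0.715 in HFD, and at 0.335, 0.392 and 0.723 in NC. Both exercise groups lay below all HFD and NC libraries, where Nr4a1 in HFD+AE lay above HFD. Of all genes, 6.99% lay lower without overlap in HFD+RE vs HFD and 16.3% in HFD+AE vs HFD. Against NC the shares were 12.4% for HFD+RE and 9.74% for HFD+AE. Nr4a3 levels were close to those of Fosb and so rest on few reads. The log2 change of Nr4a3 was -2.06 in HFD+RE vs HFD (adjusted p = 0.304, edgeR) and -1.53 in HFD+AE vs HFD (adjusted p = 0.107, edgeR). Nr4a2, a further receptor of this family, ran from 0.303 to 1.25 CPM in HFD+RE, 0.496 to 0.654 in HFD+AE, 0.756 to 1.24 in HFD and 0.595 to 1.29 in NC.

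Egr2, a zinc finger factor of the Egr1 family, ran from 0.0832 to 0.340 CPM in HFD+RE, 0.283 to 0.312 in HFD+AE, 0.429 to 0.701 in HFD and 0.131 to 0.289 in NC, the opposite order of diets to Egr1. Of all genes, 23.9% lay higher in HFD than in NC without overlap. Egr2 levels were also close to those of Fosb and so rest on few reads. The Egr2 log2 change in HFD vs NC was 1.38 (adjusted p = 0.0803, edgeR), while Egr1 stood at -1.15; the difference between the genes was not tested. Egr3 had at most 16 counts in a library. Fosl1 had 1 count, in HFD+RE 4, and Egr4 had 0 in every library.

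A wider list of other immediate early genes held 40, of which 36 were tested. In HFD vs NC, 3 rose and 5 fell by edgeR, where 15.6% of all genes were called. Tnfaip3, an inhibitor of NF-kB signalling, rose by 0.96 on the log2 scale (adjusted p = 0.0167, edgeR), and Klf6, a zinc finger factor, rose by 1.01 (adjusted p = 0.0191, edgeR). Plk2, a kinase of the cell cycle, fell by 0.99 (adjusted p = 0.0284, edgeR). Csrnp1, Gadd45g, Myc and Sgk1 were the others that fell, at -0.77 to -2.45, and Ier5 rose by 0.69; these 5 were named after their values were seen. The median of the 36 genes was 0.31, and 0.01 over all. HFD+AE vs NC, where 1.38% of all genes were called, had 1 call among the 36, the growth regulator Myc, at -3.32 (adjusted p = 0.036, edgeR), with 2.09, 1.15 and 1.71 CPM in HFD+AE and 2.12, 22.9 and 24.6 CPM in NC. NC 2, at 2.12 CPM, lay next to HFD+AE 1, and of 12 fits that each left out a library the call was kept in 3, those without HFD+RE 4, HFD+RE 5 or NC 2. The other 4 comparisons had no call by edgeR. At an unadjusted p under 0.05 edgeR found 6 in HFD+AE vs HFD, 8 in HFD+RE vs HFD, 3 in HFD+RE vs HFD+AE and 13 in HFD+RE vs NC, against 26.4%, 8.77%, 8.02% and 24.5% of all genes. DESeq2 called 3, 2, 0 and 7, against 12.1%, 1.13%, 0.148% and 11.3%. The 9 calls over the 6 comparisons became 26 without HFD+RE 3, 5 without HFD+AE 2 or NC 2, 3 without NC 5, 1 without NC 4, and 0 without HFD 1 or without HFD 3 (edgeR). The number of all genes called in HFD vs NC moved too, from 2851 to 4462 without HFD+RE 3, 488 without HFD 1 and 411 without HFD 3.

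Among 20 upstream kinases and factors, 3 fell in HFD vs NC, where 15.6% of all genes were called, and Crem had the smallest p. Crem, a cyclic AMP responsive factor with activator and repressor forms that gene counts do not separate, was at 14.8, 13.8 and 15.7 CPM in HFD+RE, at 17.7, 16.5 and 12.4 in HFD+AE, at 14.3, 19.6 and 13.6 in HFD, and at 27.9, 29.1 and 35.4 in NC. Every high-fat library lay below every NC library. The log2 change of Crem was -1.06 in HFD+RE vs NC (adjusted p = 0.0136, edgeR), -0.99 in HFD+AE vs NC (adjusted p = 0.0278, edgeR) and -0.96 in HFD vs NC (adjusted p = 0.0111, edgeR), and the 3 comparisons share the NC libraries. Leaving out single libraries kept the call in 11, 5 and 10 of 12 fits. It was lost without HFD+RE 4 in the first, and without HFD 1 or HFD 3 in the last, at adjusted p of at most 0.0644 and 0.0657 (edgeR). In HFD+AE vs NC it was lost without any 1 HFD+AE or NC library or HFD 1, at an adjusted p of at most 0.0958 (edgeR). Elk1, a partner of serum response factor, fell by 0.82 (adjusted p = 0.0232, edgeR) in HFD vs NC. The Elk1 call was lost without HFD 3, NC 2 or NC 4 (adjusted p at most 0.113, edgeR).

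Of 15 feedback regulators, 2 were called in HFD vs NC, against 15.6% of all genes, and 1 in HFD+RE vs NC, against 3.96%. In HFD vs NC, Dusp4, a phosphatase of the same family as Dusp1, fell by 2.31 (adjusted p = 0.0108, edgeR), and Spry1, an inhibitor of growth factor signalling, rose by 0.88 (adjusted p = 0.0232, edgeR). The phosphatase gene Dusp8 fell by 2.41 in HFD+RE vs NC (adjusted p = 0.0295, edgeR). The Dusp4 call was lost without HFD 1 (adjusted p = 0.0567, edgeR), that of Spry1 without HFD 1, HFD 3 or any 1 NC library (at most 0.0909), and that of Dusp8 without HFD+RE 4, HFD+RE 5, NC 2 or NC 5 (at most 0.0713). EdgeR called no upstream or feedback gene in the 3 comparisons among the high-fat groups. At an unadjusted p under 0.05 it found 6 upstream and 4 feedback genes in HFD+AE vs HFD, 1 and 4 in HFD+RE vs HFD, and 2 and 4 in HFD+RE vs HFD+AE, against 26.4%, 8.77% and 8.02% of all genes. DESeq2 called 3 and 3, 0 and 1, and 0 and 0, against 12.1%, 1.13% and 0.148%.

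Heat shock genes, which also respond fast to stress, were lowest in HFD+RE, as Fos, Fosb, Jun and Atf3 were by group mean. The summed level of 8 heat shock genes ran from 1192 to 1416 CPM in HFD+RE, 1479 to 1966 in HFD+AE, 1775 to 2272 in HFD and 1841 to 3217 in NC, so that HFD+RE lay below all other libraries. Hspa1b, an inducible HSP70 gene, was at 5.07, 3.85 and 6.11 CPM in HFD+RE, at 23.6, 11.1 and 9.29 in HFD+AE, at 29.4, 59.9 and 28.2 in HFD, and at 14.8, 69.6 and 79.7 in NC. Hspa1b and Hspa1a are near-identical copies that can share reads. Against NC, 5 of the 8 fell in HFD+RE, where 3.96% of all genes were called, among them Hspa1b at -3.45 (adjusted p = 0.00916, edgeR) and Hsph1, a co-chaperone, at -2.41 (adjusted p = 0.0116, edgeR). The others were Hspa1a at -3.88 (adjusted p = 0.0115, edgeR), the HSP90 gene Hsp90aa1 at -1.55 (adjusted p = 0.0172, edgeR) and the constitutive HSP70 gene Hspa8 at -0.91 (adjusted p = 0.0305, edgeR). Dnajb1, an HSP40 co-chaperone, was at -0.90 (adjusted p = 0.0776, edgeR), the small heat shock gene Hspb1 at -1.02 (adjusted p = 0.229, edgeR) and Hspd1, the mitochondrial HSP60 gene, at -0.43 (adjusted p = 0.297, edgeR), none of them called. All 5 calls were lost without HFD+RE 4 (adjusted p at most 0.142, edgeR). Those of Hsph1, Hsp90aa1 and Hspa8 were also lost without HFD+RE 5, those of Hsp90aa1 and Hspa8 without NC 4, and that of Hspa8 without HFD+AE 2, HFD 1 or NC 5. Against HFD, edgeR called none of the 8 in HFD+RE, with 7 lower at an unadjusted p under 0.05, against 8.77% of all genes, and DESeq2 called 3, against 1.13%. The part of the heat shock genes' differences in the levels of Fos, Fosb, Jun and Atf3 was not tested.

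The genes whose log2 CPM was most like the mean standardised profile of the 10 genes over the 12 libraries were Ednrb, Tead1, Ppp2r5b, Nudt5, Pdk4 and Pip4p2. Pearson's r was 0.88 and Spearman's rho 0.78 for Ednrb, the endothelin receptor B gene, and 0.84 and 0.78 for Tead1, a factor of the Hippo pathway. For the others r ran from 0.75 to 0.78. These genes were picked as the highest among all with a mean log2 CPM above 1, so no p is given. Without HFD+RE 3 and 4, the libraries farthest from the median profile, r was 0.86 for Ednrb and 0.60 for Pdk4.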

How the data were processed

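The deposited table holds whole-number read counts per gene for 12 liver libraries, made by the authors without normalization, and gene length in bases. Counting used featureCounts 2.0.6, and the submitters' processing notes also name fastp, HISAT2 2.2.1, DESeq2 1.40.1 and the mm10 build. The labels and headers state neither the strand setting nor the annotation release. Of counts from 1 to 20, 66.7% to 76.6% per library were even, and counting per read or per pair is not stated.

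The test was edgeR's (version 4.0.16, R 4.3.3; quasi-likelihood F-test, robust dispersion, TMM scaling, low-count filter by group), in 1 fit of all 12 libraries with a mean per group. Genes were called at a Benjamini-Hochberg adjusted p below 0.05 over 18305 genes. CPM use TMM-scaled totals, RPKM also the deposited length. Promoters came from RefSeq. GC content, that of the longest reference transcript of each gene, had a value for 98.1% of tested genes.

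The members and lists were chosen with earlier results of these data known. Named genes are the 10 members, up to 3 called genes with the smallest adjusted p from each of 3 lists per comparison, the 6 genes most like the members' mean profile, and 8 heat shock genes. The other FOS, JUN, EGR and NR4A genes stand outside that rule and are named for their family. A called gene that the rule would name is not reported here. Alternatives were RLE scaling, no low-count filter, only the 2 groups compared, the library number as a block, length and GC trends removed, DESeq2 1.42.0, HFD+AE 3 and HFD+RE 3 left out together, and each library left out in turn. No pair of libraries agreed within sampling noise.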

Additional observations from a re-analysis of the deposited data

How the results depend on the processing

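Without the low-count filter, 953 genes were called in HFD+AE vs HFD, 43 in HFD+RE vs HFD, 2 in HFD+RE vs HFD+AE and 408 in HFD+AE vs NC, and 1 of the 10 immediate early genes in each of these comparisons but HFD+RE vs HFD. Fits of only the 2 groups compared called 4928 genes in HFD vs NC, 649 in HFD+AE vs HFD, 82 in HFD+AE vs NC and 110 in HFD+RE vs NC, and 1 immediate early gene in each of HFD vs NC and HFD+AE vs HFD. Among the other immediate early genes these fits made 15 calls over the 6 comparisons, with a gene counted in each comparison that called it. DESeq2 called 4364 genes in HFD vs NC, 2211 in HFD+AE vs HFD, 206 in HFD+RE vs HFD, 27 in HFD+RE vs HFD+AE, 833 in HFD+AE vs NC and 2063 in HFD+RE vs NC, and 1 immediate early gene in each but HFD+RE vs HFD. Among the others it made 29 calls over the 6 comparisons, counted in the same way. No share of all genes over the 6 comparisons stands beside the 15 and the 29 calls, so neither is read as a result about these genes. With length and GC trends removed, 3370 of 18305 genes were called in HFD vs NC, 500 in HFD+AE vs HFD, 8 in HFD+RE vs HFD, 437 in HFD+AE vs NC and 1148 in HFD+RE vs NC. That setting called 1 immediate early gene in each of HFD vs NC and HFD+AE vs HFD. The share of HFD vs NC calls that were higher was 44.9% in place of 53.8%. In HFD vs NC that setting turned Fos to -0.13, Ier2 to -0.28 and Dusp1 to -0.0756, and in HFD+AE vs NC Ier2 to -0.0037.

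Without HFD+AE 3 and HFD+RE 3, 6258 genes were called in HFD vs NC, 4253 in HFD+AE vs HFD, 5 in HFD+RE vs HFD, 4170 in HFD+RE vs HFD+AE and 5989 in HFD+RE vs NC. Of the 10 genes it called 2 in HFD+AE vs HFD, 4 in HFD+RE vs HFD+AE, 1 in HFD+AE vs NC and 2 in HFD+RE vs NC. Among the other immediate early genes it made 42 calls over the 6 comparisons, with a gene counted in each comparison that called it. No share of all genes over the 6 comparisons stands beside the 42 calls either. Ier2 turned to -0.32 in HFD+AE vs HFD and to -0.16 in HFD+AE vs NC, where Jun turned to -0.0266.

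Same-numbered HFD+AE and HFD libraries had correlations of their deviations from the group means of -0.12, 0.11 and 0.09, and 3 of 6 libraries correlated best with their own number. Other same-numbered pairs ran from -0.50, for HFD+RE 3 and HFD+AE 3, to 0.16, for HFD+RE 5 and NC 5. With 3 libraries per group these values cannot show whether the numbers pair the samples. With the replicate block, 325 genes were called in HFD vs NC, 2 in HFD+AE vs HFD, 1 in HFD+RE vs HFD, 0 in HFD+RE vs HFD+AE, 1 in HFD+AE vs NC and 15 in HFD+RE vs NC, none of the 10 genes and 1 of the others. The block turned Junb to 0.15 in HFD vs NC, Junb to -0.37, Egr1 to -0.063, Nr4a1 to 0.0466 and Dusp1 to -0.22 in HFD+RE vs HFD, Junb to -0.0477 and Btg2 to 0.22 in HFD+RE vs HFD+AE, and Btg2 to -0.34 in HFD+AE vs NC. HFD and NC share only the library number 2, and HFD+RE shares only number 3 with HFD and with HFD+AE. Block values in those comparisons therefore lean on few shared libraries.

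Leaving out each library in turn, the genes called ran from 411 to 4462 in HFD vs NC, 0 to 1930 in HFD+AE vs HFD, 2 to 53 in HFD+RE vs HFD, 0 to 2 in HFD+RE vs HFD+AE, 44 to 373 in HFD+AE vs NC and 112 to 3983 in HFD+RE vs NC. The immediate early genes called ran from 0 to 3 in HFD vs NC and 0 to 1 in HFD+AE vs HFD, HFD+AE vs NC and HFD+RE vs NC. Calls of the others, summed over the 6 comparisons, ran from 0 to 26. Ranges that crossed 0 were, in HFD vs NC, Fos -0.22 to 0.41 and Dusp1 -0.35 to 0.38; in HFD+AE vs HFD, Fos -0.25 to 0.34, Junb -0.84 to 0.12 and Ier2 -0.33 to 0.20; in HFD+RE vs HFD, Junb -0.15 to 0.30, Egr1 -0.33 to 0.42 and Dusp1 -0.13 to 0.60. In HFD+RE vs HFD+AE they were Junb -0.0826 to 0.86 and Btg2 -0.50 to 0.12. In HFD+AE vs NC they were Fos -0.14 to 0.47, Jun -0.0328 to 1.08, Ier2 -0.17 to 0.37 and Btg2 -0.0576 to 0.21. In HFD+RE vs NC they were Fosb -1.61 to 0.00589, Junb -0.32 to 0.0263, Atf3 -0.88 to 0.13, Dusp1 -0.0305 to 0.48 and Btg2 -0.46 to 0.17. The cause of these shifts was not tested. Depth limits Fosb most, at 4 to 44 counts per library, and the planned protein comparison was not run.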
